A study of Saccharomyces cerevisiae with 144 samples.

Results

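Strain RDY245 carries an additional copy of BDF1 from which motif B has been deleted, and its newly synthesized RNA was compared between cells treated with 3-indoleacetic acid (IAA) and cells treated with the solvent, DMSO. All libraries labeled RDY245 were used, 3 IAA and 3 DMSO, which are 6 of the 144 libraries of the series. The strain is referred to below as ΔB. In ΔB, as in every strain compared here, the endogenous Bdf1 and Bdf2 (BDF1-3xV5-mAID::URA3 and BDF2-3xV5-mAID::KanMX) carried an auxin-inducible degron, and the plant F-box protein OsTIR1, which recognizes the degron when IAA is present, was expressed from the GPD1 promoter (pGPD1-OsTIR1:HIS3). The ΔB copy, pMD40:TRP1, had no degron tag, was integrated at TRP1 and was read from the promoter of BDF1. It was present in DMSO as well as in IAA, so that a DMSO cell held endogenous Bdf1/2 and the variant and an IAA cell relied on the variant. Comparators were WT (RDY234, an unmodified copy, 6 libraries per treatment), Bdf1/2-AID (RDY73, no further copy, 3 per treatment), ΔBID (RDY246, 3 per treatment) and ΔB/BID (RDY247, which lacks both regions, 3 per treatment). Each strain was a single construct, each had its own DMSO libraries, and no library served in more than 1 strain. Cells of mating type α grew in YPD, IAA or DMSO was present for 25 min, and RNA was then labeled with 4-thiouracil for 4 min.

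BET proteins bind acetylated histones through paired bromodomains and act as coactivators of RNA polymerase II through further regions, among them the extra-terminal (ET) domain. Yeast has a pair of BET proteins, Bdf1 and Bdf2, that overlap in function and are linked to the general transcription factor TFIID. Motif B and the adjoining basic interaction domain (BID) lie between the bromodomains and the ET domain, and both have been linked to the pairing of BET proteins with one another.

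In SLAM-seq, 4-thiouracil built into new RNA is alkylated and read as C in place of T. A read with at least 2 such changes is a T>C read and stands for new RNA, and the sum of all reads of a gene stands for its whole RNA pool. Levels below are T>C reads per 10000000 total reads of the library, so that a fall shared by all genes stays visible. A change is the log2 ratio of IAA over DMSO. Calls are edgeR quasi-likelihood tests on 3759 genes with a mean of at least 10 T>C reads, out of 6465 counted, at a Benjamini-Hochberg adjusted p under 0.05. With bulk RNA, fewer labeled cells and less new RNA per cell cannot be told apart.

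The 6 ΔB libraries held 5242407 to 9598945 reads, of which 142308 to 373279 were T>C reads, the fewest in IAA replicate A. Mitochondrial genes took 1.38% to 1.68% of the reads in 5 libraries and 2.38% in IAA replicate A. RPL41A alone took 3.82% to 4.78% in these libraries. Replicates of a treatment correlated across genes at 0.906 to 0.947 on log T>C counts. A chi-square per degree of freedom of 7.54 to 71.2 over their total reads, with the highest values in the pairs with IAA replicate A, showed that no library was a copy of another. Of the mating-type genes, MF(ALPHA)1 was read at 1031 ± 98.0 in DMSO (SD, n = 3) and STE3 at 91.5 ± 21.0, whereas markers of the opposite type were at or near 0. MFA1 and AGA2 had 0 T>C reads in all 6 libraries, and STE6, STE2, BAR1 and MFA2 had at most 5, 2, 1 and 2 in any library. MFA1 still had up to 136 total reads in a library. HIS3, the marker named with OsTIR1, had 0 T>C reads in all 6 and at most 10 total reads in a library. URA3, the marker of the BDF1 degron, was by contrast read at 377 ± 42.3 in DMSO (SD, n = 3). The counts of HIS3 thus do not report its marker, and the reason was not tested.

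Reads of BDF1 come from the endogenous gene and the ΔB copy together. They stood at 328, 256 and 296 in DMSO replicates A, B and C, and at 309, 237 and 254 in IAA. The treatments overlapped, with a change of -0.15 ± 0.13 (SE; edgeR's quasi-likelihood test, adjusted p = 0.323). Bdf1/2-AID, which has no further copy, had 129 ± 37.5 in DMSO (SD, n = 3), and the difference of 1.19 on the log2 scale was called (edgeR, adjusted p = 3.9e-12). TRP1, the site of integration, was read at 35.6 ± 9.09 in ΔB and at 0.884 ± 1.53 in Bdf1/2-AID. WT DMSO libraries did not match ΔB in either gene. In WT, BDF1 was read at 404 ± 52.1 and TRP1 at 11.1 ± 2.87 (SD, n = 6). The WT libraries lay above those of ΔB for BDF1 and below them for TRP1, although neither gene was called between these strains. In ΔBID and ΔB/BID TRP1 was at 35.7 ± 4.68 and 32.5 ± 1.95 (SD, n = 3). BDF2 was read at 247, 240 and 272 in DMSO and 275, 247 and 245 in IAA, and overlapped. These reads show a further BDF1 copy and do not show its sequence or the amount of protein.

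New RNA fell in ΔB when endogenous Bdf1/2 were depleted. T>C reads made up 3.58%, 3.50% and 3.89% of all reads in DMSO and 2.71%, 2.72% and 2.80% in IAA. Every IAA library lay below every DMSO library, and the IAA libraries lay closer together than the DMSO libraries. The means were 3.66 ± 0.205% and 2.74 ± 0.0504% (SD, n = 3 each), so that IAA retained 75.1% of the DMSO share. An exact two-sided permutation test gave p = 0.1, the smallest that 3 libraries against 3 allow. T>C conversions per covered T position fell from 0.293% to 0.220%, and the share outside the 100 genes with most reads fell from 6.15% to 4.69%.

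**Figure D1:**
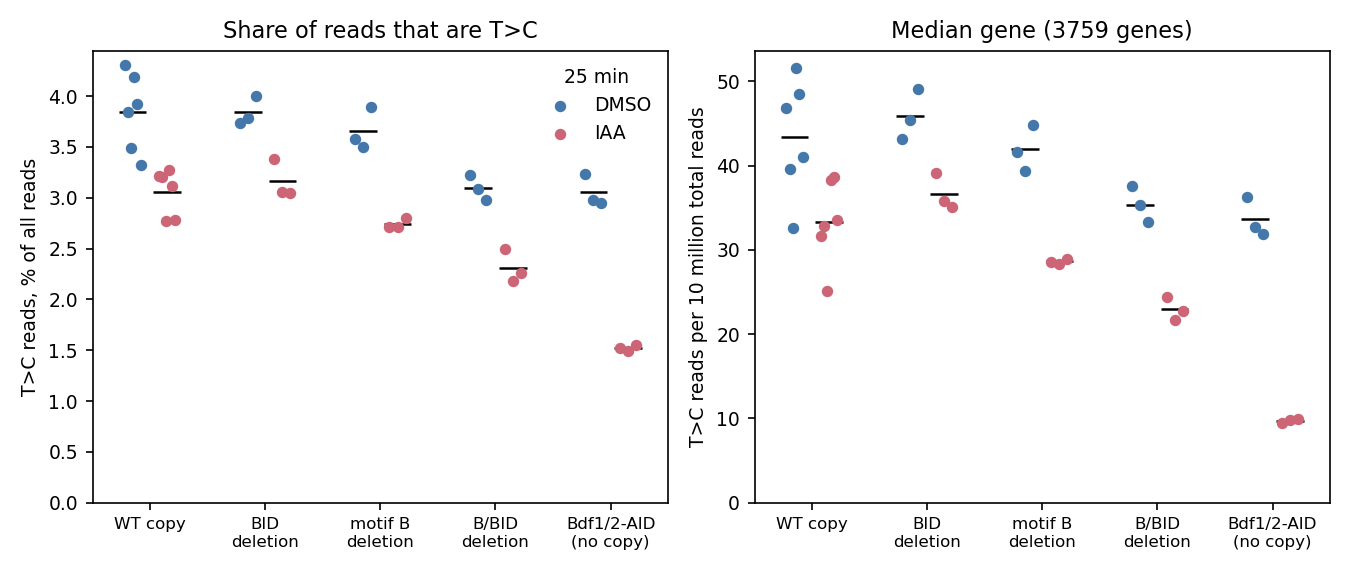
T>C reads as a percentage of all reads (left) and the level of the median gene in T>C reads per 10000000 total reads (right), in DMSO and IAA for each strain, with points for libraries and lines for means. In the motif B deletion the 3 IAA libraries had shares of 2.71% to 2.80%, below the DMSO libraries at 3.50% to 3.89%, and the Bdf1/2-AID strain without a copy reached the lowest IAA values.

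The same ratio was 79.5% in WT (3.85% to 3.06%), 82.3% in ΔBID (3.84% to 3.16%), 74.7% in ΔB/BID (3.10% to 2.31%) and 49.9% in Bdf1/2-AID (3.05% to 1.52%). The WT fall had an exact two-sided permutation p of 0.00216, the smallest for 6 against 6. In this order of retained shares ΔB stood next to ΔB/BID, and strains with any BDF1 copy lay apart from the strain without one. The difference in ratio between strains was not tested on the share itself, and tests per gene are given below.

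The median gene of the ΔB strain was read at 41.6, 39.4 and 44.8 in DMSO and at 28.6, 28.3 and 29.0 in IAA, again without overlap. The median change over genes was -0.55 on the log2 scale, and 94.3% of genes had a change below 0. Of the 3759 genes, 1595 were called lower (42.4%) and 4 were called higher (0.106%). These counts rest on library totals. With DESeq2 size factors of the total reads as the scale, 303 were lower and 12 higher at a median of -0.30, and the DESeq2 Wald test over library totals gave 526 lower and 1 higher. All 3 IAA libraries lay below all 3 DMSO libraries in 1960 genes (52.1%) and above them in 13 (0.346%). Leaving out DMSO replicate C left 1007 genes called lower, and leaving out IAA replicate B left 956. Genes called higher numbered 2 without DMSO replicate A and 7 without IAA replicate A.

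Total reads per gene sum to the library total by construction, so they show shifts between genes and cannot show a shared fall. In all reads of a gene, 1303 genes were lower (34.7%) and 49 higher (1.3%), and the median change was -0.22. These counts fell to 762 and 34 without DMSO replicate C and to 725 and 27 without IAA replicate B, and 26 were higher without DMSO replicate B and 27 without IAA replicate C. With TMM factors of total reads 189 genes were lower and 249 higher, and with DESeq2 size factors 150 and 311, which turned the balance of directions. With the total reads of the same gene as the reference for its T>C reads, the median change was -0.34, and 400 genes were lower and 0 higher.

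The promoters of 4 genes are shown first because they belong to the contrasts described below. PDR12 rose on IAA. ENO1 is a glycolytic gene whose IAA libraries all lay above DMSO. SMX2 and TAF1 fell. Each stretch runs from 250 to 101 bases before the start codon on the gene's strand, 5′ to 3′, from the RefSeq genome of build R64, and the capitals mark TATAAA, the TATA box consensus.
PDR12, chrXVI:450478-450627, minus strand: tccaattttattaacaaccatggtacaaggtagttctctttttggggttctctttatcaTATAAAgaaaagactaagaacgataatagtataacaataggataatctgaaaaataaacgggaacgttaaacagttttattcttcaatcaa
ENO1, chrVII:1000677-1000826, plus strand: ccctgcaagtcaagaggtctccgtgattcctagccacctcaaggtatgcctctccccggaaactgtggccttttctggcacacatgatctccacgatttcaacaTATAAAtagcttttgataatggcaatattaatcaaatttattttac
SMX2, chrVI:103449-103598, plus strand: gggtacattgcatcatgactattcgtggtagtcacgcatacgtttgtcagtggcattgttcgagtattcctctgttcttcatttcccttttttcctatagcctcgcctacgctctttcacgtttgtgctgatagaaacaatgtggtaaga
TAF1, chrVII:1043196-1043345, minus strand: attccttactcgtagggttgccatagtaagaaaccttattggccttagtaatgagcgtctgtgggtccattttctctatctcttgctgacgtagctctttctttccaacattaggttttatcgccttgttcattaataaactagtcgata
In PDR12 the match began 191 bases before the start codon and in ENO1 146 bases before it. SMX2 and TAF1 held none in the whole 250 bases, searched on both strands. The motif did not divide genes by direction, since the promoters of MRPL25 and TRS33, both among the largest falls, held 3 matches each.

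The 10 largest falls were taken among called genes with a level of at least 50 in the higher treatment and no overlap between treatments, a rule that 752 falling genes and 1 rising gene met. They were MRPL25, YLR146W-A, TRS33, PFU1, EAF7, VMA22, YHC1, SMX2, MPC1 and MAK5, with changes of -1.68 to -1.34. Their known roles are spread over the cell, from mitochondrial translation to splicing, vesicle traffic and ribosome assembly. In Bdf1/2-AID the changes of these 10 genes ran from -2.30 to -3.66.

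MRPL25, a protein of the large mitochondrial ribosomal subunit (chrVII:636854-637577, minus strand), had the largest fall of these. Coordinates are of the counted regions in R64. It was read at 67.4, 54.2 and 63.5 in DMSO and at 19.1, 19.4 and 19.3 in IAA. The IAA libraries were nearly equal and far below DMSO, and the change was -1.68 ± 0.27 (SE; edgeR, adjusted p = 1.3e-05). A neighbor on the same strand overlaps 14.6% of its counted region. Its change in all reads was -0.53, in WT -0.24, in ΔBID -0.27 and in ΔB/BID -1.49.

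TRS33, a subunit of the TRAPP complexes of vesicle traffic (chrXV:538409-539465, minus strand), was read at 78.9, 77.2 and 86.5 in DMSO and at 17.2, 34.3 and 38.6 in IAA. The IAA libraries spread more widely than those of MRPL25 but stayed below DMSO, as the rule required. The change was -1.40 ± 0.24 (edgeR, adjusted p = 2.33e-05), and in WT it was -0.29.

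YHC1 and SMX2 both act in splicing. YHC1, a protein of the U1 snRNP (chrXII:724471-725416, minus strand), was read at 100.4, 129.7 and 137.5 in DMSO and at 34.3, 58.2 and 48.3 in IAA, with a change of -1.37 ± 0.20 (edgeR, adjusted p = 3.71e-06). SMX2, the SmG core protein of spliceosomal snRNPs (chrVI:103699-104182, plus strand), was read at 103.3, 101.8 and 115.6 in DMSO and at 34.3, 50.7 and 38.6 in IAA. For both, every IAA library lay below every DMSO library, as the rule for choosing them required. The change of SMX2 was -1.36 ± 0.21 (edgeR, adjusted p = 4.22e-06), in the absence of the TATAAA motif in the promoter shown above.

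EAF7, a subunit of the NuA4 histone acetyltransferase, had 54.5, 44.3 and 52.1 in DMSO and 19.1, 22.4 and 16.1 in IAA. MAK5, a DEAD-box helicase of ribosome assembly, had 68.8, 60.7 and 85.4 in DMSO and 30.5, 26.8 and 29.0 in IAA. VMA22, an assembly factor of the vacuolar proton pump, and MPC1, a mitochondrial pyruvate carrier, changed by -1.37 and -1.34. YLR146W-A and PFU1 changed by -1.45 and -1.40.

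**Figure D2:**
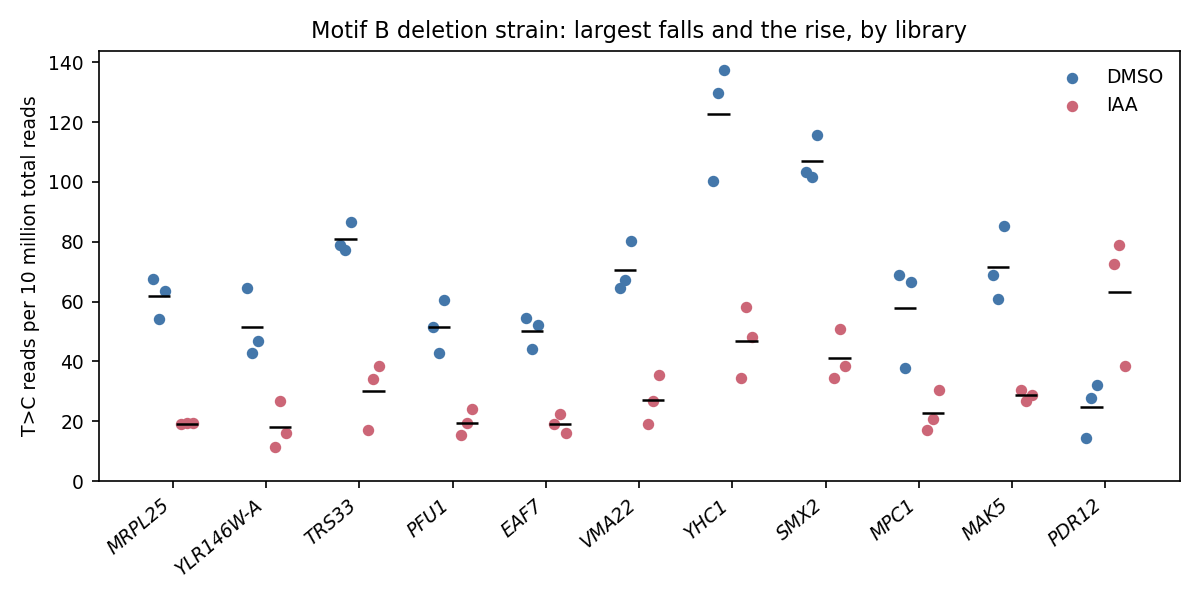
T>C reads per 10000000 total reads in each ΔB library for the 10 largest falls and PDR12, with DMSO and IAA side by side, points for libraries and lines for means. The treatments do not overlap in any of these genes, which was a condition for choosing them. PDR12 is the one with the IAA libraries on top, at 38.6 to 79.0 against 14.3 to 32.3.

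CCH1, a calcium channel of the plasma membrane, had a still larger change but a level below the rule, and was picked after its values were seen. It was read at 28.7, 44.3 and 38.5 in DMSO and at 7.63, 10.4 and 4.83 in IAA. These are low counts, though the treatments did not overlap, and the change was -2.24 ± 0.39 (edgeR, adjusted p = 2.33e-05).

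PDR12 was the only rise under the rule. It encodes a plasma membrane ABC transporter that exports weak organic acids and is activated by the factor War1 (chrXVI:445592-450377, minus strand). It was read at 14.3, 27.9 and 32.3 in DMSO and at 72.5, 79.0 and 38.6 in IAA. The lowest IAA library, replicate C, stood just above the highest DMSO library. The change was 1.31 ± 0.27 (edgeR, adjusted p = 0.000264), and in all reads of the gene it was 1.76 ± 0.23 (adjusted p = 0.00223). With its own total reads as the reference it was -0.49 (adjusted p = 0.204), which was not called, beside a median of -0.34 over all genes on that scale.

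The rise of PDR12 was not found in ΔB alone. Its change was 1.60 in ΔBID (edgeR, adjusted p = 1.4e-09), 1.11 in ΔB/BID (adjusted p = 0.0026), 1.07 in WT (adjusted p = 0.278) and -0.06 in Bdf1/2-AID (adjusted p = 0.868). The change in ΔB exceeded that in Bdf1/2-AID by 1.38 ± 0.44 (edgeR interaction term, adjusted p = 0.0071), whereas differences from WT, ΔBID and ΔB/BID were 0.26 ± 0.52, -0.29 ± 0.36 and 0.20 ± 0.42, none of them called. In all reads, the mean level on the same scale went from 201 to 669 in ΔB and from 287 to 886 in WT. It went from 245 to 813 in ΔBID, from 217 to 555 in ΔB/BID and from 171 to 387 in Bdf1/2-AID. The treatments did not overlap in all reads in any of these strains, with WT at 268 to 314 in DMSO and 819 to 1060 in IAA. IAA is itself a weak organic acid, and its presence and the depletion cannot be told apart in these libraries. A pair of CGG and CCG triplets with 23 bases between them, the spacing known from the War1 response element, was present at chrXVI:450993-451021 on the minus strand, 644 to 616 bases before the start codon, with the triplets in capitals.
PDR12 upstream site: CGGttcctaacctggtcccttaccaaCCG
Windows of 1000 bases held this spacing in 297 of 5989 genes (4.96%), and a match of letters is no measure of binding.

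**Figure D3:**
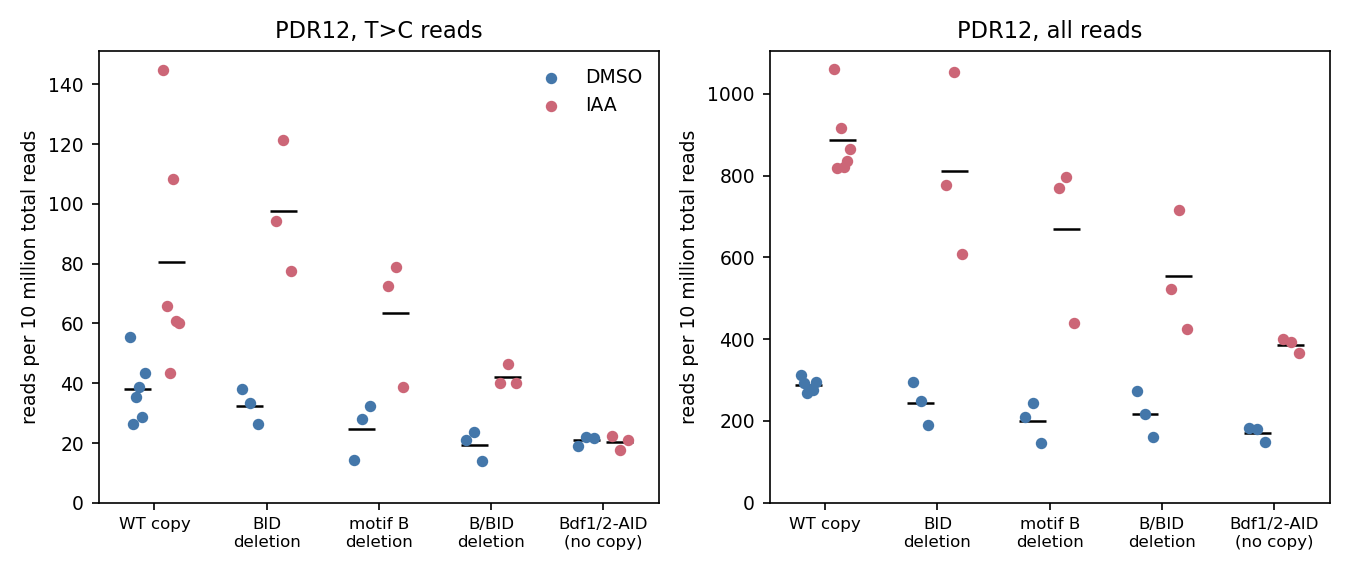
PDR12 in T>C reads (left) and all reads (right) per 10000000 total reads, in DMSO and IAA for each strain, with points for libraries and lines for means. Mean T>C reads were higher in IAA where a BDF1 copy was present, and were 21.0 and 20.3 in DMSO and IAA of Bdf1/2-AID, where mean all reads were 171 and 387.

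The other 3 genes called higher rested on thin ground and were named after their values were seen. CIN5, a stress-response transcription factor, was read at 35.9, 68.9 and 42.7 in DMSO and 59.1, 68.6 and 82.0 in IAA, which overlapped, with a change of 0.55 (edgeR, adjusted p = 0.0459). CUP1-2, a copper metallothionein with a near-identical copy, was read at 14.3, 29.5 and 12.5 in DMSO and 11.4, 73.1 and 12.9 in IAA, so that IAA replicate B alone carried its change of 0.92 (adjusted p = 0.0474). YHR054C-B shares 96.2% of its counted region with a gene on the same strand there, and its reads are not separate from it.

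Genes of the transcription machinery were called lower in varying shares. Among the gene lists with tested members, Mediator, the coactivator between activators and RNA polymerase II, had the lowest median, -0.84, with 10 of 18 tested members lower and 0 higher. TFIID, which binds core promoters and to which Bdf1 is linked, had 9 of 14 lower (median -0.71). The other general transcription factors had 8 of 13 lower (median -0.64). Against these stood the median of all tested genes, -0.55, of which 42.4% were lower.

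TAF1, the largest TFIID subunit, was read at 51.6, 39.4 and 63.5 in DMSO and at 24.8, 19.4 and 20.9 in IAA. The treatments did not overlap, and the change was -1.29 ± 0.28 (edgeR, adjusted p = 0.000471). In all reads the change of TAF1 was -0.24 (adjusted p = 0.127), and in WT T>C reads it was -0.17. TAF11 was read at 145, 181 and 233 in DMSO and at 139, 118 and 101 in IAA, with a change of -0.67 (adjusted p = 0.00128). MED2, a tail subunit of Mediator, went from 132.7 ± 18.9 to 67.1 ± 13.8 (SD, n = 3), a change of -0.96. TFA1, the large subunit of TFIIE, went from 139.1 ± 25.0 to 78.7 ± 13.8, a change of -0.83. Of the 12 subunits of RNA polymerase II itself, 7 were lower (median -0.45), with RPB10 at -0.64 and RPO21, the largest subunit, at 0.18 and not called. RPO21, and EAF1, ENO1 and FUR1 below, lie outside the rule for named genes and were picked after their values were seen.

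Chromatin complexes were next. NuA4, which acetylates histone H4, had 6 of 9 members lower (median -0.80), among them ESA1, its catalytic subunit, which was read at 231, 159 and 199 in DMSO and 132, 129.7 and 108 in IAA. EAF1, its scaffold, had a change of 0.62 that was not called (edgeR, adjusted p = 0.0898). SWR1, which exchanges the histone variant H2A.Z, had 4 of 9 lower (44.4%, median -0.64). SAGA, a coactivator that acetylates histone H3, had 4 of 11 lower (36.4%, median -0.64). Both lay near the share of all tested genes called lower, 42.4%. GCN5, the acetyltransferase of SAGA, was read at 55.9, 88.6 and 61.5 in DMSO and at 30.5, 34.3 and 27.4 in IAA, a change of -1.13. Elongation factors had 10 of 17 lower (median -0.58), with BUR2, a cyclin of an elongation kinase, at -0.97 and SPT6, a histone chaperone, at -0.69. GCN5, BUR2 and SPT6 did not overlap between treatments.

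Cytosolic ribosomal proteins, which are highly expressed, had 106 of 137 lower at a median of -0.38, nearer to 0 than the all-gene median of -0.55, where 42.4% of all genes were lower. With DESeq2 size factors, 6 of the 137 cytosolic ribosomal proteins, 7 of 50 ribosome biogenesis genes and 6 of 62 mitochondrial ribosomal proteins were lower, against 303 of all 3759 genes. RPL33B went from 738.6, 786.3 and 868.8 in DMSO to 488.3, 487.6 and 563.1 in IAA, a change of -0.64 (edgeR, adjusted p = 1.91e-05). RPL41A, the most highly read gene of the list, went from 4378 ± 214 to 3498 ± 267 (SD, n = 3), a change of -0.32. In all reads, 1 of the 137 was lower, beside 34.7% of all tested genes, with a median change of 0.00.

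Mitochondrial ribosomal proteins had 34 of 62 lower at a median of -0.73, and in all reads 36 were lower. Of all tested genes, 42.4% were lower in T>C reads and 34.7% in all reads. MRPL32, the most highly read of them, was at 271, 314 and 245 in DMSO and 139, 149 and 158 in IAA, without overlap, a change of -0.88. Ribosome biogenesis had 35 of 50 lower (median -0.54), with DBP10, a DEAD-box helicase, at -1.12 and NOP12, a nucleolar protein, at -0.49. The share called rose with the level of a gene, from 23.5% in the quintile of genes with the lowest DMSO level to 60.1% in the quintile with the highest, while the median change went from -0.59 to -0.41. Counts of calls in lists of high and low genes are thus not directly comparable.

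Hexose transporters, the weak-acid and drug exporters and glycolysis had the highest medians, 0.03, -0.01 and -0.04. Glycolysis and fermentation had 0 of 17 members lower and 0 higher, beside 42.4% and 0.106% of all tested genes. TDH3, the main glyceraldehyde-3-phosphate dehydrogenase, was read at 1765, 2040 and 2015 in DMSO and 1782, 1867 and 1850 in IAA. The treatments overlapped, and the change was -0.08 ± 0.09 (edgeR, adjusted p = 0.463). ENO1, an enolase, was read at 53.1, 54.2 and 64.6 in DMSO and at 72.5, 79.0 and 88.5 in IAA. Its IAA libraries all lay above DMSO, but the change of 0.47 ± 0.20 did not pass (adjusted p = 0.0551), and in all reads it did, at 0.37 (adjusted p = 0.0108). In the DMSO libraries themselves the median of this list was 0.80 above WT, with 0 members called. Those WT libraries pool sets of unlike composition, described below. Above Bdf1/2-AID in DMSO the list median was 0.28, with 6 of 17 members called higher.

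Histones had 1 of 11 lower (median -0.10), beside 42.4% of all tested genes. That gene was CSE4, the centromeric H3 variant, at -0.67, while HHF2, a histone H4 gene, had 1056, 934 and 1223 in DMSO and 1024, 951 and 1265 in IAA. Hexose transporters had 1 of 5 lower (median 0.03), HXT2 at -0.42. The weak-acid and drug exporters had 0 of 7 lower and PDR12 higher (median -0.01), and PDR5, the main drug exporter, was at 348, 355 and 356 in DMSO and 397, 325 and 348 in IAA. Both HHF2 and PDR5 overlapped between treatments. The Yap1 redox genes had 2 of 12 lower (median -0.14), with OYE2, an NADPH dehydrogenase, at -0.25.

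Stress and metabolic lists lay between these ends, beside a share of 42.4% lower among all tested genes. Hsf1 chaperones had 10 of 18 lower (median -0.33), with HSC82, an Hsp90, at -0.32 and FES1, an Hsp70 nucleotide exchange factor, at -0.67. Msn2/4 stress genes had 0 of 8 lower (median -0.37), the sulfur list 0 of 12 (median -0.34) and amino acid synthesis 6 of 36 (median -0.32), where LYS21, a homocitrate synthase, had the lowest p at a change of -1.68. The phosphate list had 5 of 9 lower (median -0.46), among them PHO84, the high-affinity phosphate transporter, at -0.46 and SPL2 at -0.98. The proteasome had 13 of 33 lower (median -0.45), respiration 7 of 34 (median -0.28), ergosterol synthesis 3 of 21 (median -0.39) and the cyclins with SIC1 1 of 13 (median -0.26).

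The list of uracil uptake and pyrimidine synthesis bears on the label, since 4-thiouracil enters nucleotides by uracil salvage. FUR1, the uracil phosphoribosyltransferase of that step, was read at 118, 117 and 130 in DMSO and 116, 104 and 103 in IAA. Its IAA libraries lay below DMSO by a small margin, and the change was -0.18 ± 0.17 (edgeR, adjusted p = 0.348). FCY2, a permease of purines and cytosine, fell by 0.49 and URK1, the uridine kinase, fell by 0.93, among 4 of 8 members called lower. Of all tested genes 42.4% were lower. In all reads FUR1 changed by 0.07, and the part of label uptake in the fall of T>C reads was not tested.

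**Figure D4:**
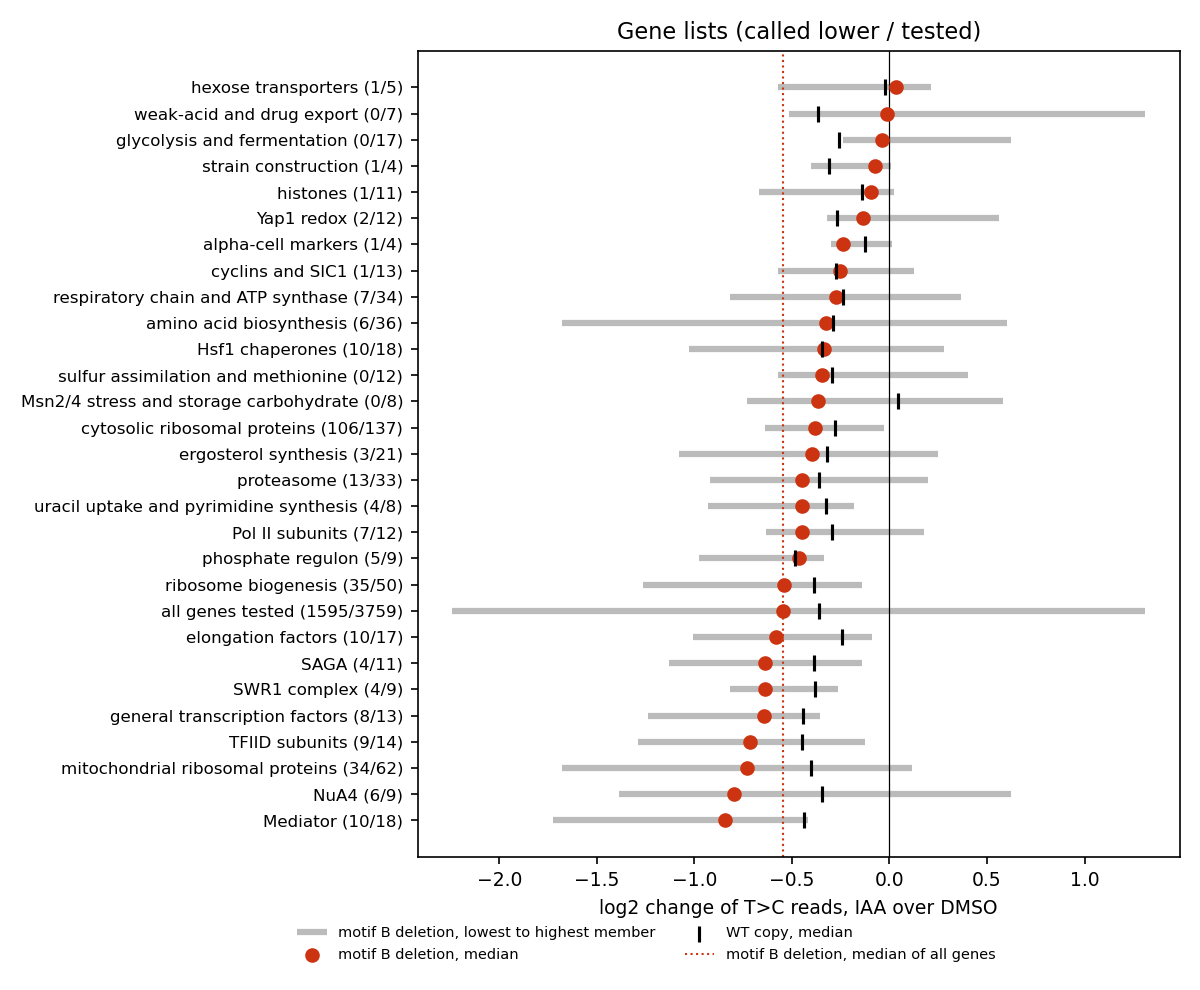
Log2 change of T>C reads, IAA over DMSO, for the gene lists (genes called lower and genes tested in parentheses), with a red point for the median, a grey bar from the lowest to the highest member, a black tick for the WT median and a dotted line at the all-gene median of -0.55. Mediator and NuA4 lie lowest, at -0.84 and -0.80, and glycolysis, exporters and hexose transporters lie near 0.

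These directions are relative to the sequencing total. With TMM factors of the T>C reads, which set the bulk of genes near 0, the median of all genes moved from -0.55 to -0.02. On that scale 23 genes were lower and 147 higher. Higher than the median gene were 13 of 17 glycolytic genes, 8 of 11 histone genes, 7 of 12 Yap1 genes and 5 of 7 exporters, beside 147 of all 3759 tested genes. Cytosolic ribosomal proteins, with 8 of 137, lay near the share of all tested genes. Against the all-gene median, Mediator stood at -0.29, NuA4 at -0.25 and TFIID at -0.17, and glycolysis at 0.51.

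The loss of both BET proteins in Bdf1/2-AID gave an independent ordering of genes, as its libraries are not shared with ΔB. In that strain 3236 genes were lower (86.1%) and 13 higher (0.346%), with a median of -1.75. Genes were divided into quintiles by that change. From the most to the least reduced quintile, the ΔB medians were -0.83, -0.69, -0.61, -0.43 and -0.22, and the share called lower went from 58.8% to 53.1%, 47.7%, 37.6% and 15.0%. The WT medians over the same quintiles ran from -0.41 to -0.30, those of ΔBID from -0.40 to -0.21 and those of ΔB/BID from -0.97 to -0.15. ΔB thus had a slope across quintiles between those of ΔB/BID and the other strains with a copy.

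The slope was seen library by library. The median log2 level of the most reduced quintile minus that of the least reduced quintile was -1.05 ± 0.033 in ΔB DMSO and -1.66 ± 0.023 in ΔB IAA (SD, n = 3), and the ranges, -1.09 to -1.03 and -1.68 to -1.64, did not overlap. In ΔB/BID it went from -1.07 to -1.96 and in ΔBID from -0.998 to -1.17, also without overlap between treatments. WT libraries started at -0.55 ± 0.16 and reached -0.69 ± 0.18 (SD, n = 6), so that the DMSO levels of WT already differed from those of the deletion strains. The WT treatments overlapped as a whole but not within replicates A to C or within D to F, sets described below. In A to C the values were -0.43 to -0.39 in DMSO and -0.63 to -0.47 in IAA. In D to F they were -0.74 to -0.66 and -0.91 to -0.80. Strains with a copy thus shared the direction and differed in its size. Across genes the changes of ΔB correlated with those of Bdf1/2-AID at r = 0.55, of ΔB/BID at 0.50, of ΔBID at 0.23 and of WT at 0.20. Genes are not independent replicates, and all strains share the degron-tagged background.

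**Figure D5:**
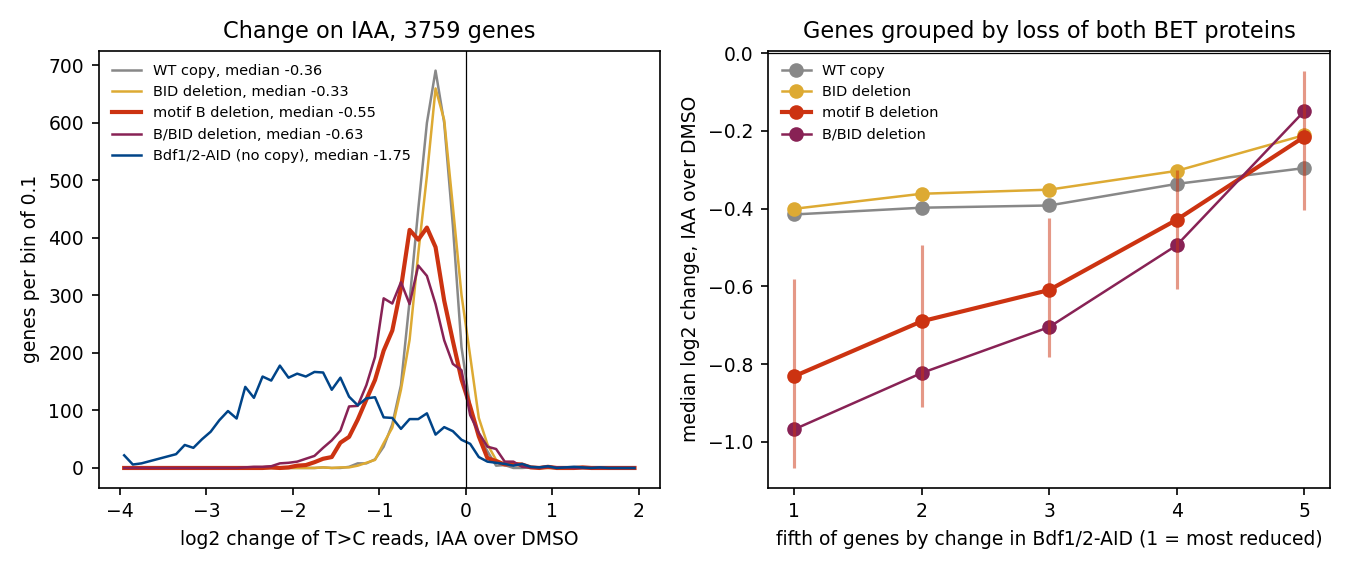
Left, histogram of log2 changes of T>C reads (IAA over DMSO) of the 3759 genes in each strain, in genes per bin. Right, the median change in quintiles of genes ordered by their change in Bdf1/2-AID (1 is the most reduced), where vertical bars show the interquartile range in the motif B deletion, whose medians run from -0.83 to -0.22 while those of WT run from -0.41 to -0.30.

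In their own IAA against DMSO tests, ΔB/BID had 1722 genes lower (45.8%) and 11 higher (0.293%), ΔBID had 482 (12.8%) and 1 (0.0266%), and WT had 0 lower (0%) and 0 higher, with 575 genes at an unadjusted p under 0.05 (edgeR). The WT median was -0.36, that of ΔBID -0.33 and that of ΔB/BID -0.63. Genes lower in ΔB were also lower in Bdf1/2-AID in 1549 cases, of 1595 and 3236, in ΔB/BID in 1031, of 1595 and 1722, and in ΔBID in 301, of 1595 and 482. Of all tested genes 86.1% were lower in Bdf1/2-AID, 45.8% in ΔB/BID and 12.8% in ΔBID, so many shared genes follow from these shares alone. WT libraries fell into sets of unlike composition, RPL41A taking 13.4% to 19.9% of reads in A to C and 3.68% to 4.39% in D to F. Within the sets the WT median was -0.40 with 0 genes called, and -0.34 with 16 lower and 1 higher.

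The difference in the change on IAA between strains was tested for each gene by an interaction term. Against WT, the median difference was -0.17, and 0 genes were called more reduced (0%) and 0 less reduced (edgeR, smallest adjusted p = 0.46), with 92 genes at an unadjusted p under 0.05. With WT D to F alone 2 genes were more reduced in ΔB, and with A to C alone 0. The calls in ΔB and the absence of calls in WT are therefore not a shown difference for any gene. For MRPL25 the difference was -1.43 ± 0.31 (adjusted p = 0.46), and for TRS33 it was -1.12 ± 0.70.

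Against ΔB/BID the median difference was 0.07, with 0 genes more and 0 less reduced (0%; edgeR, smallest adjusted p = 0.561) and 160 at an unadjusted p under 0.05. This does not show that both deletions act alike. Against ΔBID the median difference was -0.21, and 1 gene was more reduced in ΔB (0.0266%) and 0 less reduced, with 398 at an unadjusted p under 0.05. That gene was CCH1, with a difference of -2.22 ± 0.48 (edgeR, adjusted p = 0.0489), and the call was lost when DMSO replicate B, DMSO replicate C, IAA replicate A or IAA replicate C was left out.

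Against Bdf1/2-AID the median difference was 1.11. The change was higher in ΔB for 2083 genes (55.4%) and lower for 8 (0.213%), and without DMSO replicate C the second count was 5. With DESeq2 size factors the counts were 238 and 161, so the balance of directions depended on the scale. EXO84, a subunit of the exocyst, was read at 61.7, 50.9 and 52.1 in ΔB DMSO and 45.8, 40.3 and 33.8 in IAA, a change of -0.46, and changed by -3.91 in Bdf1/2-AID. The difference was 3.44 ± 0.61 (edgeR, adjusted p = 8.5e-06). RNH70, an RNA exonuclease, and RPB3, a subunit of RNA polymerase II, differed by 3.02 ± 0.55 and 2.90 ± 0.48.

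The 8 genes were YBR012W-B, SER3, TDH2, SNR61, SNR55, NRD1, ENB1 and HRP1, listed in full after their values were seen. NRD1, a termination factor of short noncoding transcripts, was read at 27.2, 29.5 and 33.3 in ΔB DMSO and 45.8, 43.2 and 49.9 in IAA. All IAA libraries lay above DMSO, though the change of 0.61 ± 0.26 missed the threshold (edgeR, adjusted p = 0.0526), and it was 1.58 in Bdf1/2-AID. HRP1, a cleavage factor subunit, differed by -1.22 ± 0.39 and SER3, an enzyme of serine synthesis whose counted region is overlapped for 19.7% by a neighbor on the same strand, by -0.89 ± 0.29. Both rose in Bdf1/2-AID, by 1.26 and 1.23, and changed in ΔB by 0.04 and 0.34 without a call.

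IAA libraries of ΔB were also set directly against those of WT. Here 201 genes were lower (5.35%) and 43 higher (1.14%) in ΔB, with a median of -0.18. With DESeq2 size factors 2 were lower and 14 higher, which turned the balance of directions. Leaving out any single ΔB IAA library, A, B or C, left 0 and 0 (edgeR). The library medians were 4.86 ± 0.016 in ΔB and 5.07 ± 0.22 in WT on the log2 scale (exact two-sided permutation p = 0.19, n = 3 and 6, smallest possible 0.0119). Against WT A to C alone 669 genes were lower and 638 higher, and against D to F alone 528 and 122. In the lists, 10 of 62 mitochondrial ribosomal proteins were lower and 4 of 17 glycolytic genes higher than in WT.

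In DMSO, where endogenous Bdf1/2 were present, 0 genes were lower (0%) and 4 higher (0.106%) in ΔB than in WT, with 566 at an unadjusted p under 0.05 (edgeR), and leaving out any single ΔB DMSO library, A, B or C, left 1 higher. The library medians were 5.40 ± 0.092 and 5.44 ± 0.24 on the log2 scale (exact permutation p = 0.81, n = 3 and 6). The 4 genes were FLR1, YOR302W, LCL1 and YNCL0039W, named after their values were seen, with differences of 1.90, 2.44, 1.49 and 1.62. FLR1, a multidrug transporter, was read at 229, 258 and 238 in ΔB and at 45.3 to 85.3, median 64.4, in WT. It stood at 181 ± 34.1 in Bdf1/2-AID, 197 ± 56.3 in ΔB/BID and 166 ± 19.7 in ΔBID (SD, n = 3), so WT was the lowest of these strains. Counts depended on the WT set, with 566 lower and 826 higher against A to C and 56 and 67 against D to F.

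Against Bdf1/2-AID in DMSO, 42 genes were lower (1.12%) and 706 higher (18.8%), with a median of 0.32 and library medians of 5.40 ± 0.092 and 5.09 ± 0.098 on the log2 scale (exact permutation p = 0.1, the smallest possible for 3 against 3). With DESeq2 size factors 145 genes were lower and 222 higher. Over library totals, the medians of the ΔB libraries lay above those of Bdf1/2-AID without overlap. Lower genes numbered 24, 16 and 23 without ΔB replicate A, ΔB replicate B and Bdf1/2-AID replicate A, and higher genes 399 without ΔB replicate C. TAF1 was at 51.5 ± 12.1 in ΔB and 24.7 ± 1.09 in Bdf1/2-AID. Beside BDF1 and TRP1, which the construct adds, the sulfur list had 8 of 12 genes higher (median 0.99), Hsf1 chaperones 8 of 18, amino acid synthesis 14 of 36, ribosome biogenesis 19 of 50 and cytosolic ribosomal proteins 38 of 137, beside 18.8% of all genes.

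TATAAA was searched on both strands in the 250 bases before the start codon of 5994 protein-coding genes and found in 43.5%. It was in 37.7% of 1574 genes called lower in ΔB and 42.7% of 2067 tested genes not called lower. Genes with the motif had a median change of -0.53 with 40.2% lower, and those without it -0.58 with 45.3% lower, so the split was shallow. In the quintile of genes with the smallest fall or a rise in ΔB it was in 50.0%, against 37.6% in the quintile with the largest fall. Among 136 genes higher on the scale of TMM factors of T>C reads, it was in 61.0%, and among 22 genes lower on that scale in 50.0%. Of 3641 tested genes 40.5% held it, so both sets lay above that share. TTACCCG is the motif of the general regulatory factor Reb1. It was in 10.4% of the genes called lower and 8.66% of those not called lower. Of the tested genes 9.39% held it, and of all promoters 7.04%. The quintile with the largest fall in ΔB had 8.92% and that with the smallest fall or a rise 6.73%. The quintiles between them had higher shares, so the motif did not rise steadily with the fall. These shares describe letters in a window and not sites or causes. Coding length made little difference, with medians from -0.52 in the quintile of shortest genes to -0.61 in the longest.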

How the data were processed

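SLAM-seq libraries of the 5 strains named above were used. According to the methods and processing notes, the authors trimmed paired-end reads of 3′ mRNA libraries with fastp 0.23.2 and bbduk, and mapped and counted them with SLAM-DUNK 0.4.3 on build R64. The deposited values are raw counts per gene and library of all reads, T>C reads, multimapping reads, covered T positions and conversions. Counted regions ran 250 bases past the coding sequence in 6460 genes. RefSeq names matched 6462 of 6465 genes, and 1 listed symbol had no match.

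T>C counts were tested with edgeR 4.0.16 (glmQLFit and glmQLFTest, R 4.3.3), with the total reads of the library as its size and no further factor, within ΔB or with an interaction of strain and treatment, followed by Benjamini-Hochberg adjustment across all genes tested. Library medians are log2 of T>C reads per 10000000 total reads plus 0.5. The methods took normalization factors from total read counts, and whether as library totals or as size factors over genes is not given in the sources used here. DESeq2 1.42.0, the tool of the study's methods, was an alternative, as were other scalings, filters, a replicate block, T>C over total reads of a gene, each WT set and the leaving out of each library. Groups and replicate letters came from the labels. P-values measure the spread between these libraries, which may be technical in part. The fits were tested on simulated data.

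The members and lists were chosen with earlier results of these data known. Named genes were the 10 largest falls and rises past an adjusted p of 0.05 with a level of at least 50, no overlap and under 20% multimapping reads, the lowest-p called and the highest member of each list, the 3 largest interaction differences each way, and the genes used to build the strain. Reads of overlapping neighbors and near-identical copies cannot be separated.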

Additional observations from a re-analysis of the deposited data

Results flagged for a closer look

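Differences between strains in the change on IAA, tested by an interaction term with edgeR and Benjamini-Hochberg adjustment, passed for 2083 genes with a higher change in the motif B deletion than in Bdf1/2-AID and for 8 genes with a lower change than there. Against ΔBID, 1 gene, CCH1, had a lower change. Under DESeq2 size factors the first 2 counts were 238 and 161.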

How the results depend on the processing

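The count of genes lower in ΔB depended on the scaling. TMM of T>C reads sets the bulk of genes near 0, whereas factors of total reads kept a median below 0. Against 1595 lower, 4 higher and a median of -0.55, DESeq2 size factors of total reads gave 303, 12 and -0.30, TMM of total reads 351, 9 and -0.32, TMM of T>C reads 23, 147 and -0.020, and T>C over total reads of the gene 400, 0 and -0.34. All genes lower under the first 3 of these were among the 1595. The DESeq2 Wald test gave 526 lower and 1 higher, and a mean of at least 50 T>C reads (847 genes tested) 501, 0 and -0.41. Leaving out each library gave 956 to 1481 lower, 2 to 7 higher and medians of -0.57 to -0.48. The share ratio of 0.751 ranged from 0.735 to 0.775. Total reads gave 189 lower and 249 higher with TMM, 150 and 311 with size factors, 725 to 1340 and 26 to 57 with libraries left out. The causes were not tested.

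Replicate letters were not shown to pair samples, as deviations of the same letter correlated at 0.0543 to 0.0737, although each sample correlated best with its own letter. With the replicate block, 1707 genes were lower and 6 higher, total reads had 128 higher, 1 gene was more reduced than in WT and 2 than in ΔBID.

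Between strains, the difference from Bdf1/2-AID had 161 genes lower and 238 higher with size factors, and 5 to 11 and 1769 to 2052 with libraries left out. The difference from ΔBID had 0 with size factors and 0 to 2 with libraries left out, and that from WT had 2 with WT D to F. Against WT in IAA, size factors gave 2 lower and 14 higher, WT A to C 669 and 638, WT D to F 528 and 122, and each left-out ΔB library 0 and 0. Against WT in DMSO, A to C gave 566 and 826, D to F 56 and 67, and each left-out library 1 higher. Against Bdf1/2-AID in DMSO, size factors gave 145 and 222, and left-out libraries 16 to 39 and 399 to 681.

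Of 46 named genes that were called, 24 kept the call with size factors, 25 with TMM of total reads, 8 with TMM of T>C reads, 39 with the Wald test, 23 over total reads of the gene and 36 to 44 with a library left out. Signs turned with TMM of T>C reads in URA3 (0.12), MF(ALPHA)1 (0.22), NOP12 (0.033), TDH3 (0.44), HXT2 (0.11), HSC82 (0.21), SOD2 (0.086), OYE2 (0.27), MUP1 (0.37), PHO84 (0.059), ILV5 (0.31), RPN1 (0.011), CLB6 (0.12), ERG3 (0.13), FCY2 (0.031), RPL41A (0.20), EXO84 (0.064), RPB3 (0.12) and BDF1 (0.37). They turned with size factors and TMM of total reads in TDH3 (0.16 and 0.14), MUP1 (0.090 and 0.066), ILV5 (0.032 and 0.0085) and BDF1 (0.096 and 0.072). Over total reads of the gene they turned in HHF2 (-0.10), PDR12 (-0.49), PDR5 (-0.18), QCR6 (-0.16), HRP1 (-0.41), SER3 (-0.23), BDF2 (-0.069) and TRP1 (-0.13). TRP1, near 0, turned with the Wald test (-0.012), no filter (-5.2e-05) and the block (-0.021). With libraries left out the sign of 5 uncalled genes turned, with ranges of -0.12 to 0.12 in HHF2, -0.071 to 0.072 in PDR5, -0.28 to 0.27 in HRP1, -0.044 to 0.067 in BDF2 and -0.14 to 0.20 in TRP1.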
